A study of Mus musculus with 18 samples.

Results

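Glucocorticoid-induced stress genes are transcripts that cells raise when glucocorticoids, the steroid hormones released by the adrenal cortex during stress, bind their receptor. The set described here holds 10 of the 19937 genes measured: the receptor gene Nr3c1 and 9 genes known as its targets, Fkbp5, Tsc22d3, Klf9, Zbtb16, Sgk1, Ddit4, Pdk4, Mt1 and Mt2. They were chosen by gene symbol, and each was read by 1 probe set that carries that symbol alone. Levels are the deposited log2 values of a probe set, so a difference of 1 is a doubling, and levels of different genes are not set against each other.

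The tissue was dura mater, the outer membrane around the brain, from male mice aged 17 to 21 weeks. Each array held the dura of 1 mouse, and the 18 arrays form 6 groups of 3. Engrafted mice were WBB6F1-KitW/W-v animals given mast cells by the intravenous route 8 to 10 weeks before. Deficient mice were WBB6F1-KitW/W-v animals with no engraftment, and wild-type mice were WBB6F1-Kit+/+. In the stroke groups the middle cerebral artery had been blocked with a filament for 30 minutes and the dura was taken 2 days later. Naive mice were matched for age, and sham-operated mice were not analysed here. In every stroke difference the operation and the blocked artery therefore cannot be told apart. Kit encodes the receptor for stem cell factor, and its W and W-v alleles also affect red blood cell, pigment and germ cell lineages. Both the engrafted and the deficient mice carry them, so against wild type the alleles and the mast cell state cannot be told apart.

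The glucocorticoid receptor waits in the cytoplasm bound to heat shock proteins and to immunophilins such as the product of Fkbp5. Once it binds hormone, it moves to the nucleus and binds palindromic response elements near its target genes. Its targets damp inflammation, shift fuel use from glucose to fatty acids and slow growth, and stroke is known to raise circulating glucocorticoids. Hormone was not measured in the files.

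The arrays of a group correlated at 0.985 to 0.995, and 0 were identical. Each value is a separate mouse, so the spread between replicates includes the differences between animals. The median standard error of a stroke difference was 0.0959 on the log2 scale, which limits what 3 arrays against 3 can show. All 10 genes lay above the lower quartile of every array (6.09 to 6.23), with lowest values of 8.79 to 12.27. The mean z score of 10 mast cell markers lay at -0.09 to 1.25 in engrafted and -1.32 to -1.03 in deficient dura, against 0.24 to 1.02 in wild-type dura, and all 10 meningeal fibroblast markers lay above the lower quartile. Ms4a2, a mast cell receptor chain, lay above it on 0 arrays. Ttr, a marker of the choroid plexus, differed by several log2 units between arrays. It was lowest on 5 arrays: stroke deficient 2, stroke wild-type 2, naive engrafted 3 and naive deficient 1 and 3. The pineal markers Tph1 and Crx and the neuron markers Snap25 and Camk2a lay above the lower quartile on all 18 arrays. The mean z score of the pineal markers lay at -1.31 to 0.49 in stroke and 0.52 to 0.88 in naive wild-type dura. In the other categories its stroke and naive ranges overlapped.

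Averaged over the 3 categories, stroke was followed by higher Fkbp5 and Mt2 and by lower Tsc22d3 and Klf9. The set did not move one way. Of the 10 genes, 2 were higher, 2 were lower and 6 did not pass the test, which was limma's moderated test with Benjamini-Hochberg adjustment at an adjusted p under 0.05. Across all tested probe sets 13.5% were called in that comparison, 8.05% higher and 5.42% lower. In wild type 1 gene was higher and 1 lower, where 10.9% of all tested probe sets were called, 6.24% higher and 4.63% lower. In engrafted and in deficient mice 0 of the 10 were called, beside 1.11% and 0.25% of all, while 2 and 1 of the 10 had an unadjusted p under 0.05 in limma, beside 10.9% and 13.5% of all. The median difference of the 10 genes was -0.11 (log2), beside 0.01 over all tested probe sets, and 3 of the 10 had a positive sign against 54.9% of all. Without the 5 arrays lowest in Ttr, 0 of the 10 were called, while the averaged differences of the 4 genes were of similar size, at 0.64 for Fkbp5, -0.35 for Tsc22d3, -0.14 for Klf9 and 0.23 for Mt2. The tissue is bulk, so fewer cells that carry a transcript and less transcript per cell cannot be told apart.

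**Figure D1:**
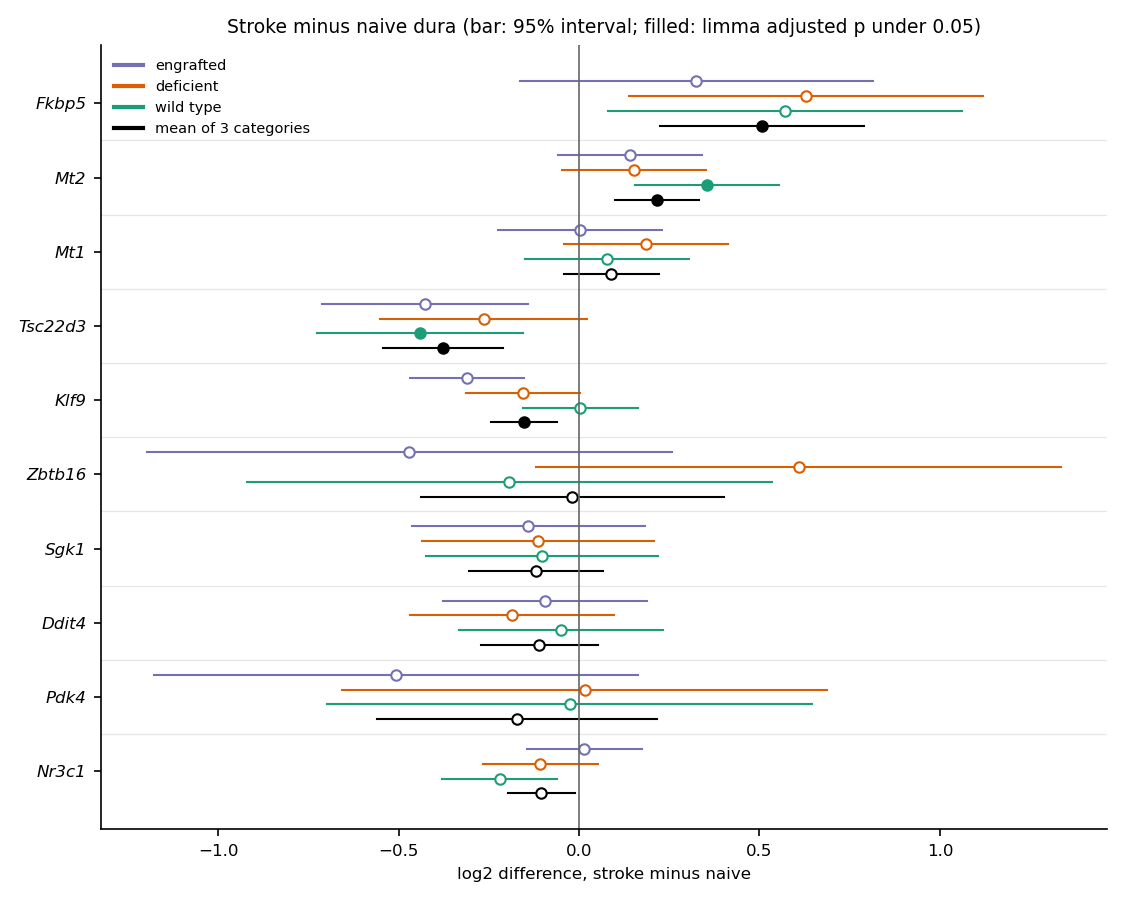
Log2 difference between stroke and naive dura (horizontal axis) for each gene (vertical axis), with a 95% interval, in engrafted, deficient and wild-type mice and averaged over the 3 categories. Filled points passed limma's test at an adjusted p under 0.05. Fkbp5 and Mt2 lie right of 0 and Tsc22d3 left of 0 in all 3 categories, while Zbtb16 and Pdk4 have the widest intervals.

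Fkbp5 encodes an immunophilin co-chaperone that lowers the receptor's affinity for hormone and is itself induced by the receptor, a short feedback loop. Its probe set, 10449452, read 10.46, 10.52 and 10.82 in engrafted stroke dura, against 10.58, 9.85 and 10.39 in engrafted naive dura. In deficient mice it read 10.52, 10.61 and 10.81 after stroke and 10.07, 9.68 and 10.29 in naive dura. In wild-type mice it read 10.27, 10.48 and 10.55 after stroke and 9.57, 9.55 and 10.46 in naive dura. The stroke arrays were all at 10.27 or above and close together, whereas the naive arrays were spread over about 1 log2 unit. Only in deficient mice did the 3 stroke arrays lie wholly above the 3 naive ones, which 13.7% of all tested probe sets also did in that direction. Engrafted naive array 1 and wild-type naive array 3 reached the stroke range of their categories.

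Averaged over categories, Fkbp5 was higher after stroke by 0.51 ± 0.13 (log2, SE), a 1.42-fold difference with a 95% interval of 0.23 to 0.79 (limma adjusted p = 0.019). The differences within categories were 0.32 ± 0.23 in engrafted, 0.63 ± 0.23 in deficient and 0.57 ± 0.23 in wild-type mice, with limma adjusted p of 0.66, 0.281 and 0.127, and none passed. Wild-type naive array 3 decided the wild-type value: without it the difference was 0.87 with a limma adjusted p of 0.0177. The averaged call held in all 18 fits that left out a single array and was lost without the 5 arrays lowest in Ttr, where the difference was wider (0.64, limma adjusted p = 0.0518).

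Nr3c1, the receptor gene, is often lowered by the hormone itself, and its product is a factor through which the other 9 genes can respond to glucocorticoids. Probe set 10458569 gave 10.88, 10.85 and 10.88 in engrafted stroke dura, against 10.88, 10.77 and 10.92 in engrafted naive dura. Deficient arrays gave 10.87, 10.92 and 10.87 after stroke and 10.97, 10.89 and 11.11 when naive. Wild-type arrays gave 10.82, 10.67 and 10.52 after stroke and 10.89, 10.93 and 10.85 when naive. Stroke wild-type mice had the lowest mean of all 6 groups, and all 3 arrays lay below every naive wild-type array, a separation that 14.2% of all tested probe sets showed in that direction. The difference in wild type was -0.22 ± 0.07 (limma adjusted p = 0.0716) and the average over categories -0.10 ± 0.04 (limma adjusted p = 0.128). The receptor transcript therefore passed in no stroke comparison. Without stroke wild-type array 1 the wild-type difference was -0.30 and passed (limma adjusted p = 0.0253).

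Tsc22d3, also called GILZ, encodes a leucine zipper protein that restrains NF-kB and AP-1 in immune cells and is one of the most direct readouts of the receptor. It differed after stroke in the opposite direction to Fkbp5. Probe set 10606989 read 10.71, 10.96 and 10.98 in engrafted stroke dura, against 11.55, 11.05 and 11.32 in engrafted naive dura. Deficient dura read 11.09, 11.21 and 11.20 after stroke and 11.30, 11.33 and 11.67 when naive. Wild-type dura read 11.03, 10.92 and 10.78 after stroke and 11.24, 11.24 and 11.57 when naive. In each category every stroke array lay below every naive array, whereas 7.6% of all tested probe sets did so in engrafted, 5.92% in deficient and 14.2% in wild-type mice.

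Averaged over categories the Tsc22d3 difference was -0.38 ± 0.08, 1.30-fold lower after stroke, with a 95% interval of -0.54 to -0.21 (limma adjusted p = 0.00439). It was -0.43 ± 0.13 in engrafted, -0.26 ± 0.13 in deficient and -0.44 ± 0.13 in wild-type mice, with limma adjusted p of 0.175, 0.401 and 0.0475. The wild-type call lay at the threshold and was kept in 5 of the 18 fits that left out 1 array, with a highest limma adjusted p of 0.197 without naive wild-type array 3. The averaged call was kept in all 18, and the lowest and highest averaged differences were -0.42 and -0.34. Without the 5 arrays lowest in Ttr the difference was -0.35 and the call was lost (limma adjusted p = 0.0633). Between categories after stroke, deficient dura stood 0.25 ± 0.13 from wild type (limma adjusted p = 0.408) and engrafted -0.03 ± 0.13 (limma adjusted p = 0.962), neither past the threshold.

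Klf9, a Krüppel-like transcription factor induced by glucocorticoid and thyroid hormone, varied little between mice of a group. Its pooled standard deviation within groups was 0.08 (log2), beside 0.09 for Nr3c1 and 0.47 for Zbtb16, the most variable. Probe set 10462091 read 11.14, 11.35 and 11.40 in engrafted stroke dura, against 11.67, 11.55 and 11.60 in engrafted naive dura. Deficient dura read 11.48, 11.47 and 11.65 after stroke and 11.70, 11.69 and 11.68 when naive. Wild-type dura read 11.52, 11.50 and 11.62 after stroke and 11.46, 11.56 and 11.62 when naive. Stroke arrays lay wholly below naive arrays in engrafted and in deficient mice, beside 7.6% and 5.92% of all tested probe sets, and overlapped them in wild type.

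Averaged over categories Klf9 was lower by a difference of -0.15 ± 0.04 (limma adjusted p = 0.0268). Within categories it stood at -0.31 ± 0.07 in engrafted, -0.16 ± 0.07 in deficient and 0.00 ± 0.07 in wild-type mice, with limma adjusted p of 0.0602, 0.378 and 0.984. The engrafted difference passed with array weights (adjusted p = 0.0315) and with a trended, robust variance (0.0453) in limma. The stroke response of engrafted mice minus that of wild type was -0.31 ± 0.11, with an unadjusted p of 0.0092 and a limma adjusted p of 0.24, so a difference between the responses was not shown. The averaged call was kept in 13 of the 18 fits without 1 array. It was lost with the scores of choroid plexus and of neuron markers added as covariates (-0.14, limma adjusted p = 0.108) and without the 5 arrays lowest in Ttr (-0.14, limma adjusted p = 0.238), though the difference was nearly as large in both.

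Zbtb16, or PLZF, is a zinc finger repressor that glucocorticoids induce strongly in many tissues and that also marks innate-like lymphocytes. Its stroke differences had no common sign. Probe set 10593225 read 10.55, 10.29 and 11.38 in engrafted stroke dura, against 11.31, 10.94 and 11.38 in engrafted naive dura. Deficient dura read 10.89, 11.30 and 11.15 after stroke and 10.17, 10.26 and 11.07 when naive. Wild-type dura read 9.40, 10.01 and 9.73 after stroke and 9.29, 9.68 and 10.75 when naive. The highest and the lowest naive wild-type arrays were more than 1 log2 unit apart, and the stroke and naive ranges overlapped in all 3 categories.

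The stroke difference of Zbtb16 was -0.47 ± 0.34 in engrafted, 0.61 ± 0.34 in deficient and -0.19 ± 0.34 in wild-type mice, and -0.02 ± 0.20 on average, with limma adjusted p of 0.668, 0.439, 0.772 and 0.967. The engrafted response minus the deficient response was -1.08 ± 0.48 (unadjusted p = 0.0408, limma adjusted p = 0.51).

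**Figure D2:**
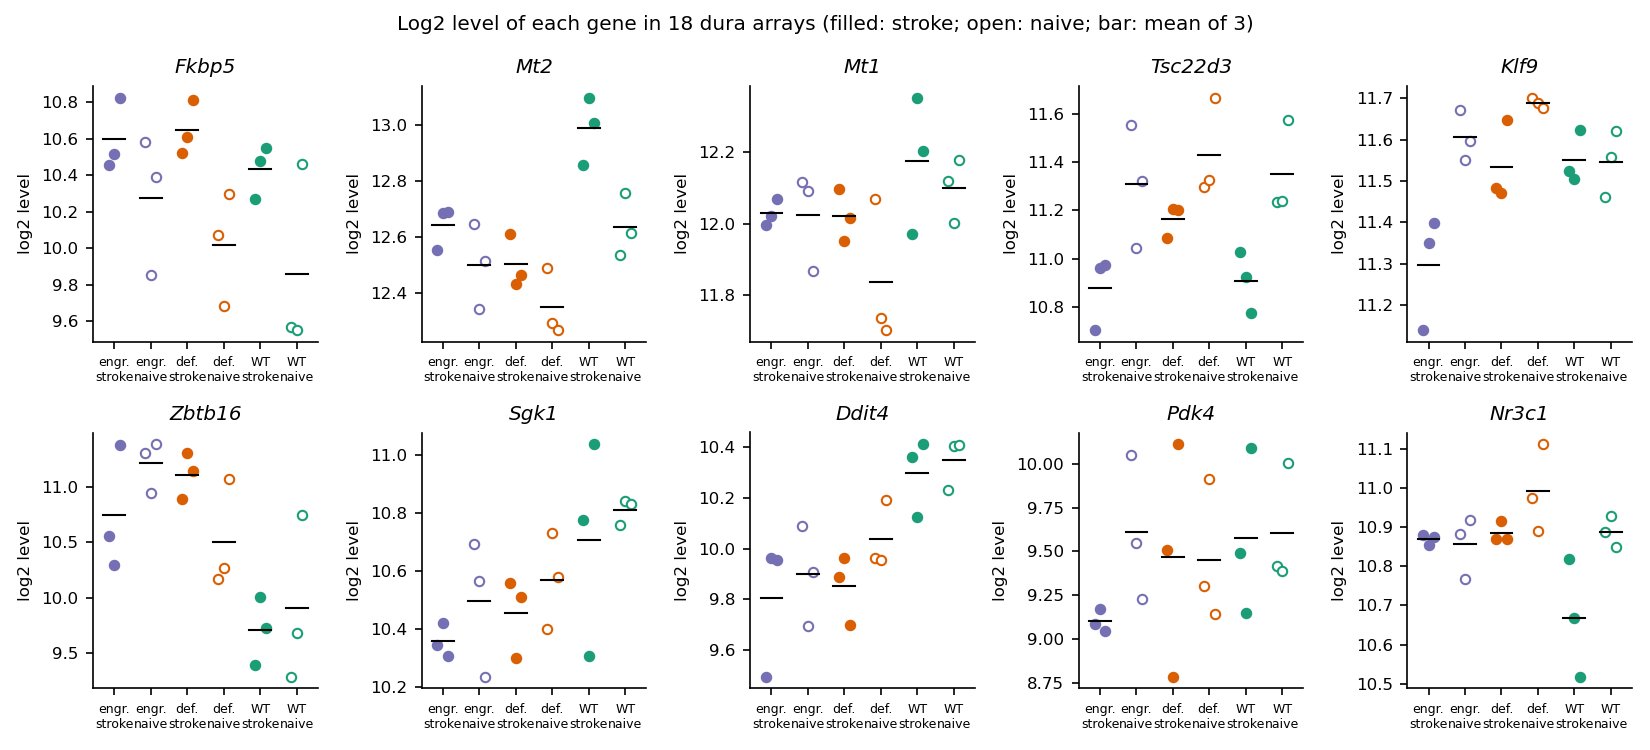
Log2 level (vertical axes, each with its own range) of the 10 genes in the 18 arrays, by group (horizontal axes: engrafted, deficient and wild-type dura, each after stroke and naive). Points are single mice, filled for stroke and open for naive, and bars are means of 3. Mt2 is highest in wild-type stroke dura, Zbtb16 is low in most wild-type arrays, and the stroke arrays of Tsc22d3 lie below the naive arrays of their category.

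Sgk1 encodes a serum- and glucocorticoid-induced kinase that regulates sodium channels and transporters and was first found as an early target of the receptor. From the RefSeq promoter table of GRCm38.p6 (250 bases before to 50 after each start), 15 windows of 8 of the 10 genes were searched. The palindromic glucocorticoid response element was searched as the arm AGAACA followed, 3 bases on, by its reverse complement. It occurred in 3 of all 32851 windows (0.009%), and 1 of these is a window of Sgk1. That window is shown because no other window of the 10 genes that was searched holds the exact palindrome. It lies on the plus strand at chr10:21993640-21993939 and is 1 of 6 that the table gives for Sgk1. Capitals mark matches to AGAACA, 1 arm of the palindrome, on either strand, of which there are 3. The last of them and the one before it form the palindrome, which begins at position -189 relative to the start.
Sgk1: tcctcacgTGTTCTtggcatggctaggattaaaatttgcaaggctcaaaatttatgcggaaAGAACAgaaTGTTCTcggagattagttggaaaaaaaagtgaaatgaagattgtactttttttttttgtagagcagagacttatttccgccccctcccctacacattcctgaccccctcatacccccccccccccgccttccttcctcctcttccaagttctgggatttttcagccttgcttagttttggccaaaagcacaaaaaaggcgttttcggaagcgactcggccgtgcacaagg

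The arm alone was found in 18.974% of all windows. Among the other windows it occurred once in each of a further pair of Sgk1 windows and once in 1 of the 3 windows of Tsc22d3, at chrX:140600473-140600772, and 0 times in those of Fkbp5, Klf9, Ddit4, Pdk4, Mt1 and Mt2. A missing match says only that these letters are not in the window.

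Sgk1 did not pass the test in any of the 13 comparisons. Probe set 10362073 read 10.34, 10.42 and 10.31 in engrafted stroke dura, against 10.69, 10.56 and 10.24 in engrafted naive dura. Deficient dura read 10.56, 10.30 and 10.51 after stroke and 10.40, 10.73 and 10.58 when naive. Wild-type dura read 10.78, 10.31 and 11.04 after stroke and 10.76, 10.84 and 10.83 when naive. Stroke and naive arrays overlapped in all 3 categories, and the widest spread was that of wild-type stroke dura, where array 2 was lowest. The averaged difference was -0.12 ± 0.09 with a 95% interval of -0.31 to 0.07 (limma adjusted p = 0.414).

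Ddit4, or REDD1, inhibits the growth kinase mTORC1 and responds to glucocorticoids, low oxygen and energy stress. Its levels differed between categories more than with stroke, though no difference passed. Probe set 10369290 read 9.49, 9.96 and 9.96 in engrafted and 9.89, 9.96 and 9.70 in deficient stroke dura, against 10.36, 10.12 and 10.41 in wild-type stroke dura. In naive dura it read 10.09, 9.70 and 9.91 in engrafted and 9.96, 9.95 and 10.19 in deficient mice, against 10.23, 10.41 and 10.41 in wild type. The highest of the 12 Kit-mutant arrays, 10.19, lay below 5 of the 6 wild-type arrays. Averaged over categories the stroke difference was -0.11 ± 0.08 (limma adjusted p = 0.386).

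Pdk4 phosphorylates and inactivates pyruvate dehydrogenase and so moves fuel use towards fatty acids. It was also among the most variable genes between mice, with a pooled standard deviation of 0.43 (log2). Probe set 10543017 read 9.09, 9.17 and 9.05 in engrafted stroke dura, against 10.05, 9.55 and 9.23 in engrafted naive dura. Deficient dura read 9.51, 8.79 and 10.11 after stroke and 9.31, 9.91 and 9.14 when naive, and wild-type dura read 9.49, 9.15 and 10.09 after stroke and 9.42, 9.39 and 10.01 when naive. The engrafted stroke arrays lay below the engrafted naive arrays, as 7.6% of all tested probe sets did, by -0.51 ± 0.32 on average (limma adjusted p = 0.611), while in deficient and wild-type mice the arrays overlapped. The average over categories was -0.17 ± 0.18, with a 95% interval from -0.56 to 0.22 (limma adjusted p = 0.593).

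Mt1 and Mt2 encode metallothioneins, small cysteine-rich proteins that bind zinc and copper and are induced by glucocorticoids, metals and inflammatory cytokines. In RefSeq they stand next to each other, with 0 genes between them. Their windows are shown because they hold several copies of the metal response core, TGCACNC or TGCGCNC, which the zinc-sensing factor MTF1 binds. Capitals mark each match on either strand. Mt2 lies at chr8:94172368-94172667 with 4 matches and Mt1 at chr8:94178839-94179138 with 3, both on the plus strand.
Mt2: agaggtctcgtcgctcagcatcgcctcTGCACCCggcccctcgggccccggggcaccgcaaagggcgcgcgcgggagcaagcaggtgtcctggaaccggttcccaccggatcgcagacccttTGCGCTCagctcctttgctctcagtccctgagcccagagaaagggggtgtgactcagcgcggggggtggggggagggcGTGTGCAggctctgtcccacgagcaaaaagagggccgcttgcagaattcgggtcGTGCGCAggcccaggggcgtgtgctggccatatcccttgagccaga
Mt1: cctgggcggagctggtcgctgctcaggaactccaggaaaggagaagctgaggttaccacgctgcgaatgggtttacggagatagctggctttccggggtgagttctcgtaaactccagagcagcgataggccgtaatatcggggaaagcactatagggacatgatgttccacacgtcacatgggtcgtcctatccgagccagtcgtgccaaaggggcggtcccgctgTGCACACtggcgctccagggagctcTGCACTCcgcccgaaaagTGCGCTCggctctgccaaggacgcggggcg

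At least 1 such match was present in 25.704% of all windows and 3 or more in 1.969%. Neither window held the arm of the glucocorticoid element.

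Mt2 was higher after stroke, on average and in wild type. Probe set 10574023 read 12.55, 12.69 and 12.69 in engrafted stroke dura, against 12.65, 12.34 and 12.52 in engrafted naive dura. Deficient dura read 12.61, 12.43 and 12.46 after stroke and 12.49, 12.29 and 12.27 when naive. Wild-type dura read 12.86, 13.10 and 13.01 after stroke and 12.54, 12.76 and 12.61 when naive. The 3 wild-type stroke arrays were the highest of all 18 and lay wholly above the wild-type naive arrays, as did 15.8% of all tested probe sets. In the other categories stroke and naive arrays overlapped.

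The Mt2 difference was 0.14 ± 0.09 in engrafted and 0.15 ± 0.09 in deficient mice (limma adjusted p = 0.637 and 0.477). It was 0.35 ± 0.09 in wild type, a 1.28-fold difference (limma adjusted p = 0.0249), and 0.22 ± 0.05 averaged over categories (limma adjusted p = 0.0154). The response in deficient minus that in wild-type mice was -0.20 ± 0.13 (limma adjusted p = 0.875) and in engrafted minus wild-type mice -0.21 ± 0.13 (limma adjusted p = 0.497), so the responses were not shown to differ. The wild-type call was kept in 14 of the 18 fits without 1 array and was lost without naive array 1 or 3 (limma adjusted p = 0.0805 and 0.0792) or stroke array 2 or 3 (0.103 and 0.0752). With both tissue scores as covariates the difference was 0.28 in wild type and 0.19 on average (limma adjusted p = 0.191 and 0.0894). Without the 5 arrays lowest in Ttr it was 0.30 and 0.23 (limma adjusted p = 0.146 and 0.0702). Of 10 neutrophil markers, 8 were higher after stroke on average and 0 lower, with a median difference of 0.66, and the level of Mt2 correlated with their mean z score at 0.76 over the 18 arrays and at 0.28 over deviations from group means. The same score correlated, in that order, at -0.60 and 0.31 with Tsc22d3, at -0.47 and 0.37 with Klf9 and at 0.46 and 0.41 with Fkbp5. The part of neutrophils in the differences of these genes and of Mt2 was not tested. Brain markers moved the other way from neutrophil markers in wild type. There 4 of 9 neuron markers were lower after stroke and 0 higher, and 4 of 8 astrocyte markers were lower and 1 higher. The neuron score lay at -2.04 to -1.02 in wild-type stroke dura, against -0.17 to 0.94 in wild-type naive dura, and the astrocyte score at -1.22 to -0.59 against 0.12 to 0.56. Mt2 correlated with the neuron score at -0.64 over the 18 arrays and at -0.16 over deviations from group means, and with the astrocyte score at -0.50 and -0.30. The part of astrocytes was not tested.

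Mt1, read by probe set 10574027, lay between 11.70 and 12.35 on all arrays. It read 12.00, 12.02 and 12.07 in engrafted stroke dura, against 12.12, 12.09 and 11.87 in engrafted naive dura. In deficient mice it read 12.10, 11.95 and 12.02 after stroke, against 12.07, 11.74 and 11.70 when naive, and in wild-type mice 11.97, 12.35 and 12.20 after stroke, against 12.12, 12.00 and 12.18 when naive. The arrays overlapped in every category, and the averaged difference of 0.09 ± 0.06 did not pass (limma adjusted p = 0.386). To compare the neighbours, the stroke difference of Mt1 was subtracted from that of Mt2 within arrays. The excess of Mt2 was 0.138 in engrafted, -0.0332 in deficient and 0.277 in wild-type mice and 0.127 on average. In an exact two-sided permutation test within categories over 8000 arrangements the averaged excess had p = 0.0838, so unequal differences of the pair were not shown.

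The levels of these genes were also compared between categories after stroke. Deficient and wild-type mice differ in mast cell state and in Kit alleles, which cannot be told apart here. In deficient stroke dura Zbtb16 was higher and Mt2 was lower than in wild-type stroke dura, and the other 8 genes did not pass, while 2.61% of all tested probe sets were called, 0.642% higher and 1.97% lower. Zbtb16 stood at 10.89, 11.30 and 11.15 in deficient stroke dura, against 9.40, 10.01 and 9.73 in wild-type stroke dura, without overlap, a difference of 1.40 ± 0.34 or 2.64-fold (limma adjusted p = 0.0403). Mt2 stood at 12.61, 12.43 and 12.46 in deficient stroke dura, against 12.86, 13.10 and 13.01 in wild-type stroke dura, a difference of -0.49 ± 0.09 (limma adjusted p = 0.0108). In all, 3 of the 10 genes lay wholly higher in deficient than in wild-type stroke dura (Tsc22d3, Zbtb16 and Nr3c1) and 2 wholly lower (Ddit4 and Mt2), beside 9.46% and 9.98% of all tested probe sets.

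The call of Zbtb16 was kept in 7 of the 18 fits without 1 array, with a highest limma adjusted p of 0.165 without stroke wild-type array 1. That of Mt2 was kept in 16 and was lost without stroke deficient array 2 or 3 (limma adjusted p = 0.0614 and 0.0551). With both tissue scores as covariates the differences were 1.14 for Zbtb16 and -0.44 for Mt2 (limma adjusted p = 0.161 and 0.0737). Without the 5 arrays lowest in Ttr they were 1.45 and -0.40 (limma adjusted p = 0.209 and 0.232), so both calls were lost while the differences were of similar size. The neuron score lay at -1.05 to 0.53 in deficient stroke dura, against -2.04 to -1.02 in wild-type stroke dura. The neutrophil score lay at -0.46 to -0.13 in deficient and at 0.61 to 1.41 in wild-type stroke dura, without overlap. The part of either cell type in the Zbtb16 and Mt2 differences was not tested. Ddit4 stood at -0.45 ± 0.13 (limma adjusted p = 0.0993) and passed without stroke engrafted array 1 (0.043).

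Engrafted stroke dura differed from wild-type stroke dura in the same direction for these genes, without a call. Zbtb16 stood at 1.03 ± 0.34, Mt2 at -0.35 ± 0.09 and Ddit4 at -0.50 ± 0.13, with limma adjusted p of 0.211, 0.133 and 0.13. Both comparisons share the wild-type stroke arrays, so their directions are not independent. In this comparison 0 of the 10 genes passed in limma and 6 had an unadjusted p under 0.05, beside 0.411% of all tested probe sets called and 11.6% at that unadjusted level. Engrafted arrays lay wholly higher than wild-type ones in Zbtb16 and Nr3c1 and wholly lower in Klf9, Ddit4 and Mt2, beside 7.96% and 7.78% of all tested probe sets. Engrafted stroke dura against deficient stroke dura also gave 0 of 10, with 1 gene, Klf9, at an unadjusted p under 0.05 (-0.24 ± 0.07, limma adjusted p = 0.749), and of all tested probe sets 0.0277% were called and 6.28% were at that unadjusted level. Klf9 and Tsc22d3 lay wholly lower in engrafted than in deficient stroke dura, beside 6.1% of all tested probe sets. Zbtb16 and Mt2 stood there at -0.37 ± 0.34 and 0.14 ± 0.09 (limma adjusted p = 0.862 and 0.833).

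In naive dura no gene of the set passed between categories. Engrafted against wild type gave the widest difference, 1.31 ± 0.34 for Zbtb16 (limma adjusted p = 0.125), where all 3 engrafted arrays lay above the wild-type ones, as did 12.1% of all tested probe sets. Ddit4 stood at -0.45 ± 0.13 (limma adjusted p = 0.135). Deficient against wild type gave 0.60 ± 0.34 for Zbtb16, -0.29 ± 0.09 for Mt2, -0.26 ± 0.11 for Mt1 and -0.31 ± 0.13 for Ddit4, with limma adjusted p of 0.747, 0.653, 0.695 and 0.705. Of all tested probe sets, 0% were called for engrafted against wild type, 0.0185% for deficient against wild type and 0.0185% for engrafted against deficient. At an unadjusted p under 0.05 in limma the numbers of the 10 genes were 2, 3 and 0, beside 19.1%, 6.82% and 4.7% of all tested probe sets. For deficient against wild type, Klf9 lay wholly higher and Sgk1, Ddit4 and Mt2 wholly lower, beside 5.06% and 6.77% of all tested probe sets. Engrafted naive arrays lay wholly below wild-type ones in Sgk1 and Ddit4, beside 12.3%, and wholly below deficient ones in Klf9, beside 3.54%.

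The differences between stroke responses were called for 0 of the 10 genes, with 0.351% of all tested probe sets called for deficient minus wild type, 0.106% for engrafted minus wild type and 0.00462% for engrafted minus deficient. At an unadjusted p under 0.05 in limma there were 0, 2 and 1 of the 10, beside 7.35%, 13.2% and 9.69% of all tested probe sets, the 2 being Klf9 and Nr3c1 (0.23 ± 0.11, limma adjusted p = 0.361). The median standard error of such a difference was 0.136 (log2), beside 0.11 for Klf9 and 0.48 for Zbtb16 in the engrafted minus wild-type response, which limits what 3 arrays a group can show.

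**Figure D3:**
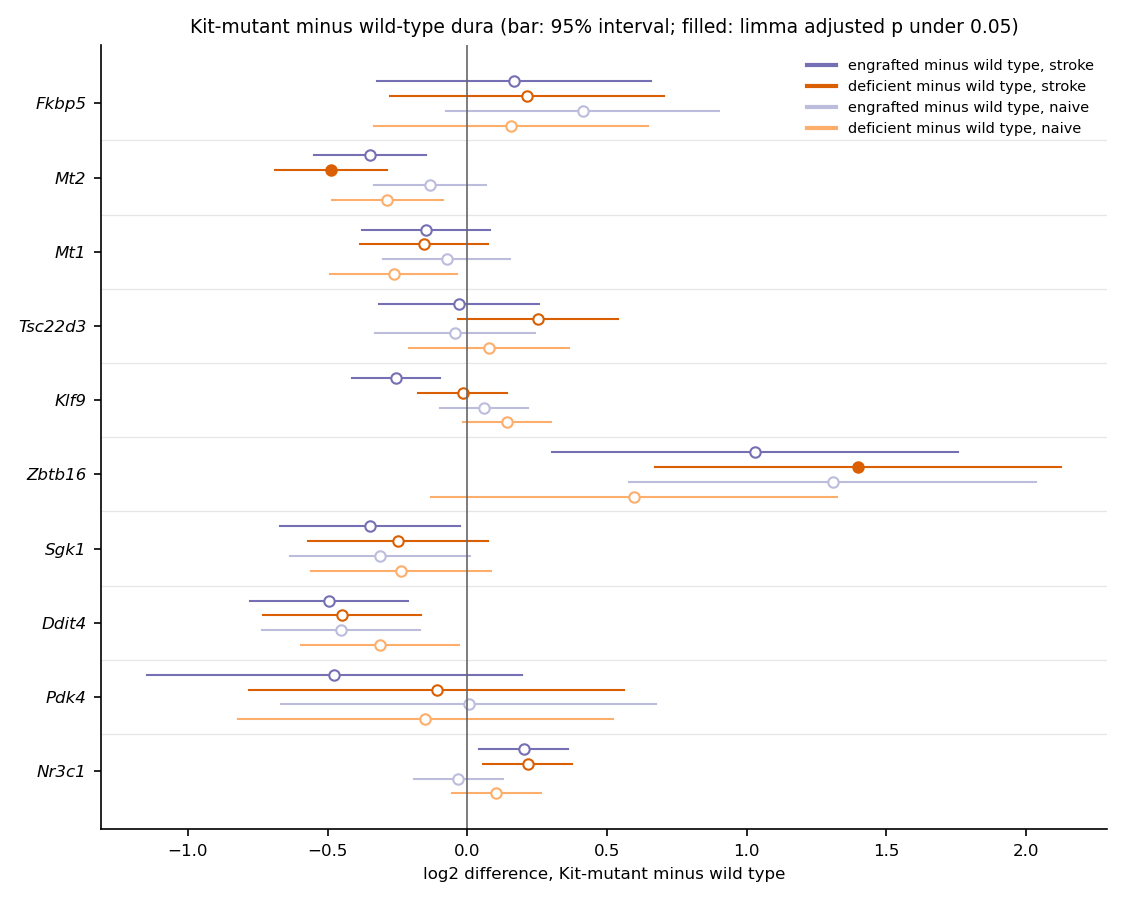
Log2 difference between Kit-mutant (engrafted or deficient) and wild-type dura (horizontal axis) for each gene (vertical axis), after stroke and in naive mice, with 95% intervals. Filled points passed limma's test at an adjusted p under 0.05. Zbtb16 lies right of 0 and Ddit4 and Mt2 left of 0 in all 4 comparisons, and Zbtb16 and Mt2 passed in deficient against wild-type stroke dura.

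Mice of the same group differed together in some of these genes. After each group's mean was subtracted, Fkbp5 and Zbtb16 correlated at 0.81 over the 18 arrays, Fkbp5 and Tsc22d3 at 0.75 and Tsc22d3 and Ddit4 at 0.66, among 45 pairs of genes described and with no test. Leaving out the 2 arrays farthest from the median, the value for Fkbp5 and Tsc22d3 was 0.63. Without subtraction of the group means Fkbp5 and Tsc22d3 correlated at -0.19. In wild-type stroke dura the order of the 3 mice in Tsc22d3 was the reverse of that in Fkbp5. Naive wild-type array 3 was the highest of its group in Fkbp5, Zbtb16 and Tsc22d3, by 0.60, 0.84 and 0.22 (log2) above the group's mean. The array highest in Fkbp5 was array 3 in every group except naive engrafted, where it was array 1. Array 3 also lay above its group's mean in Zbtb16 in every group. What the array numbers stand for is not given, and their part in these correlations was not tested. Arrays share the RNA amplification and the normalization, so these values are descriptions of 18 arrays.

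Sgk1 and Pdk4 formed another pair, with a correlation of 0.74 over deviations and 0.70 over all arrays. Both followed the mean z score of 9 choroid plexus genes. Over deviations from group means the correlation with that score was 0.88 for Sgk1 and 0.77 for Pdk4, and without the 2 farthest arrays 0.83 and 0.67. With both tissue scores as covariates the averaged stroke difference of Sgk1 was -0.16 and that of Pdk4 -0.09 (limma adjusted p = 0.106 and 0.72). The score ranged from -1.39 to 1.07 in wild-type stroke dura and from 0.37 to 0.63 in wild-type naive dura. How much of the Sgk1 and Pdk4 signal came from attached choroid plexus was not tested. Nr3c1 followed several other lists, at 0.84 over deviations with endothelial and mural markers and at 0.82 with monocyte and macrophage markers. Meningeal fibroblast markers gave 0.73, lymphocyte markers 0.52 and the choroid plexus score -0.47, so no single cell type was singled out.

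**Figure D4:**
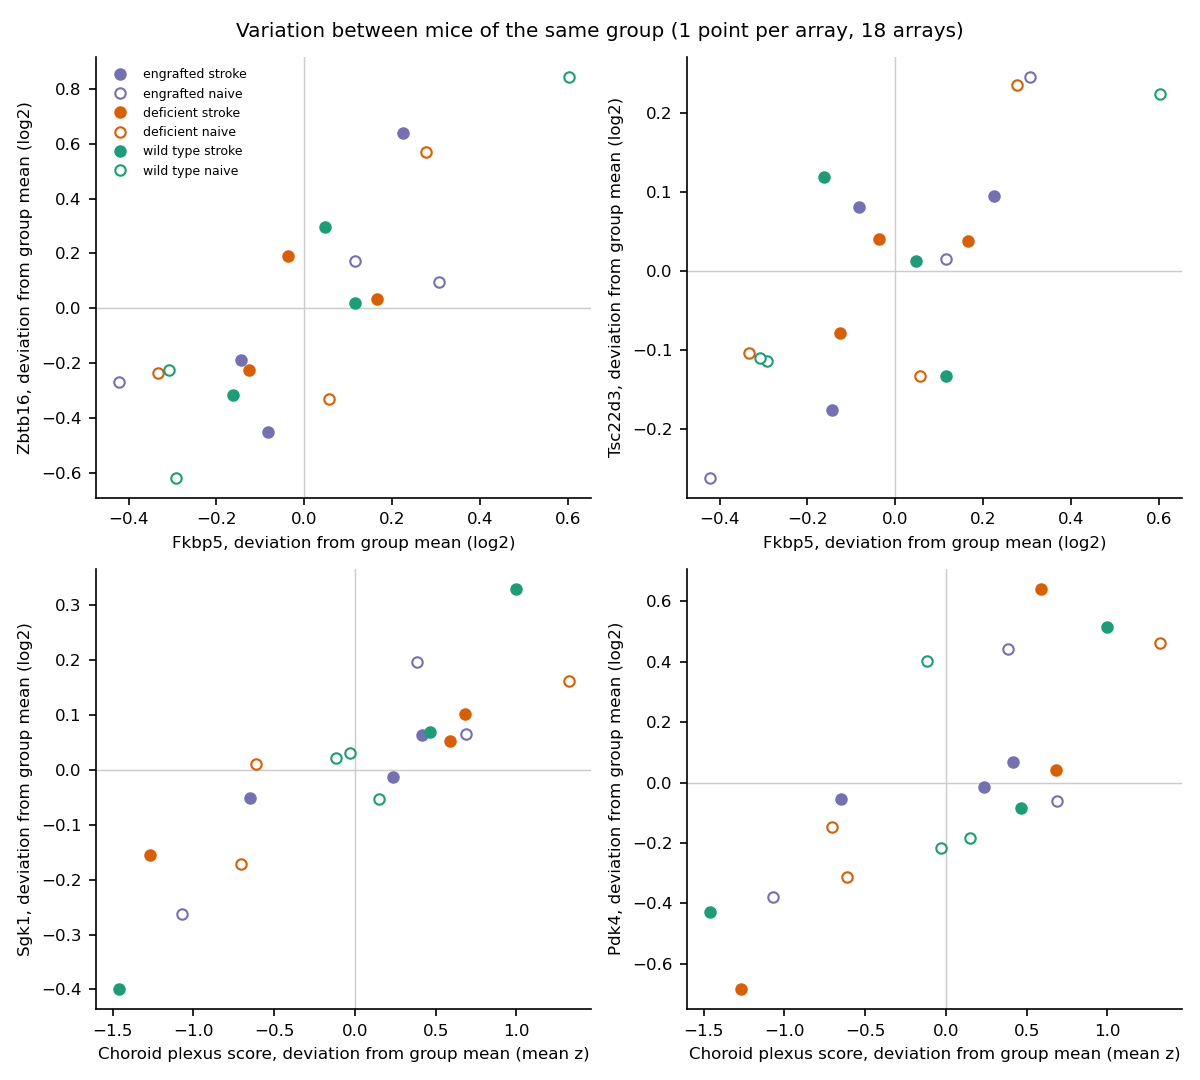
Deviation of each array from the mean of its group (log2) for Zbtb16 and Tsc22d3 against Fkbp5 (upper panels), and for Sgk1 and Pdk4 against the deviation of the choroid plexus score (lower panels). Each point is 1 of the 18 arrays, filled for stroke and open for naive. The correlations are 0.81 and 0.75 above and 0.88 and 0.77 below.

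The genes with the most similar pattern over the 18 arrays, by Pearson correlation of the log2 level, differed from member to member. For Fkbp5 they were Acer2 (0.88), Rbp7 (0.86) and Cd36 (0.84). For Tsc22d3 they were Abca8a, Hhip and Pik3r1 (0.88 to 0.89) and for Klf9 Per1 (0.82), Jade2 and Thbs1. For Ddit4 they were Cebpd (0.92), Rhob and Kctd9, for Zbtb16 Ppm1h (0.81), Foxo3 and Sun2, for Sgk1 Mospd1 (0.94), Lrguk and Naf1 and for Pdk4 Cideb (0.83), Ahcyl2 and Sorbs3. For Mt2 they were Ctsl (0.90), a lysosomal protease, Serpinb1a and Lap3, for Mt1 Nmt1 (0.83), Akr1c21 and 2810025M15Rik, and for Nr3c1 Abca9 (0.92), Bank1 and Ogt. After the group means were subtracted, Mt2 and Ctsl correlated at 0.54 and Zbtb16 and Ppm1h at 0.40, while Sgk1 and Mospd1 stayed at 0.91 and Fkbp5 and Acer2 at 0.87.

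Other genes known to respond to glucocorticoids also moved both ways. Of 22 measured out of 24 listed, 3 were higher after stroke on average, 4 were lower and 15 did not pass, and the median difference was -0.02. The median over all tested probe sets was 0.01, and 8.05% of them were higher and 5.42% lower. Lcn2, an iron-scavenging lipocalin that neutrophils store, was higher by 1.25 ± 0.15, Anxa1, a glucocorticoid-regulated protein that limits leukocyte entry and is also abundant in myeloid cells, by 0.59 ± 0.08 and Tgm2, a transglutaminase of macrophages and endothelium, by 0.45 ± 0.07, with limma adjusted p of 5.63e-05, 0.000228 and 0.000289. Errfi1, a feedback inhibitor of the epidermal growth factor receptor, was lower by a difference of -0.34 ± 0.05 (limma adjusted p = 0.000583). The other lower genes were Per1, Dusp1 and Klf15. Beside these changes, 8 of 10 neutrophil and 4 of 10 monocyte and macrophage markers were higher on average, and their part in the 3 higher genes was not tested. Within categories the counts higher and lower were 2 and 0 in engrafted, 0 and 1 in deficient and 3 and 0 in wild-type mice. Called there in either direction were 1.11%, 0.25% and 10.9% of all tested probe sets.

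Genes of receptor and ligand handling were called in both directions. Of 17 measured out of 20 listed, 1 was higher on average, 3 were lower and 13 did not pass, with a median of -0.06. In that comparison 8.05% of all tested probe sets were higher and 5.42% lower. Nr3c2, the mineralocorticoid receptor, which also binds glucocorticoids, was lower by a difference of -0.20 ± 0.04 (limma adjusted p = 0.00758), and in wild type by -0.44 ± 0.08 (limma adjusted p = 0.00188). The coactivators Ncoa1 and Ncoa2 were lower, with differences of -0.18 ± 0.05 and -0.14 ± 0.04 (limma adjusted p = 0.0208 and 0.0168). Hsd11b1, the enzyme that regenerates active corticosterone inside cells, was higher by 0.18 ± 0.05 (limma adjusted p = 0.0274). Among 15 paralogues of the 10 genes, 0 were higher and 2 were lower, Nr3c2 and the muscle and liver glucocorticoid target Klf15 (-0.26 ± 0.07, limma adjusted p = 0.0173), beside a median of 0.01.

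Of 10 metallothionein and zinc partners, 2 were higher on average, 0 were lower and 8 did not pass. Across all tested probe sets 8.05% were higher and 5.42% lower. The 2 higher partners are zinc importers, Slc39a1 with 0.54 ± 0.07 and Slc39a14 with 0.38 ± 0.07 (limma adjusted p = 0.000214 and 0.00311). In wild type, where Mt2 was also called, they stood at 0.91 ± 0.13 and 1.01 ± 0.13 (limma adjusted p = 0.000381 and 0.000139). In engrafted mice they stood at 0.45 ± 0.13 and 0.23 ± 0.13 and in deficient mice at 0.26 ± 0.13 and -0.11 ± 0.13, none past the threshold. Mtf1, the factor that binds the metal response core, stood at -0.09 ± 0.05 on average (limma adjusted p = 0.274). Around Pdk4, 1 of 13 measured genes of fatty acid oxidation, out of 15 listed, was higher, Slc25a20, the carnitine carrier of mitochondria (0.23 ± 0.07, limma adjusted p = 0.044), and 0 were lower.

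Clock genes share targets with the receptor, and Per1 stands on both lists. Of 15 measured out of 16 listed, 7 were higher after stroke on average, 5 were lower and 3 did not pass. The share of all tested probe sets called was 13.5%. Dbp, a clock output factor, was higher by 0.85 ± 0.08 and the clock repressor Per3 by 0.50 ± 0.08, while the activator Arntl, with -0.57 ± 0.07, and Nfil3, with -0.42 ± 0.07, were lower (limma adjusted p = 5.14e-06, 0.000831, 5.68e-05 and 0.000893). The labels give no time of day for the dissection, and its part in the differences of the 10 genes was not tested. The part of pineal tissue in the clock genes was not tested either. Over deviations from group means the mean z score of the clock list correlated at 0.70 with Ddit4 and at 0.54 with Tsc22d3. Over all arrays, without subtraction of the group means, these values were -0.10 and 0.26. The score averages clock genes that moved in opposite directions after stroke, so it does not measure the state of the clock. Whether Ddit4 and Tsc22d3 follow the clock was not tested.

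**Figure D5:**
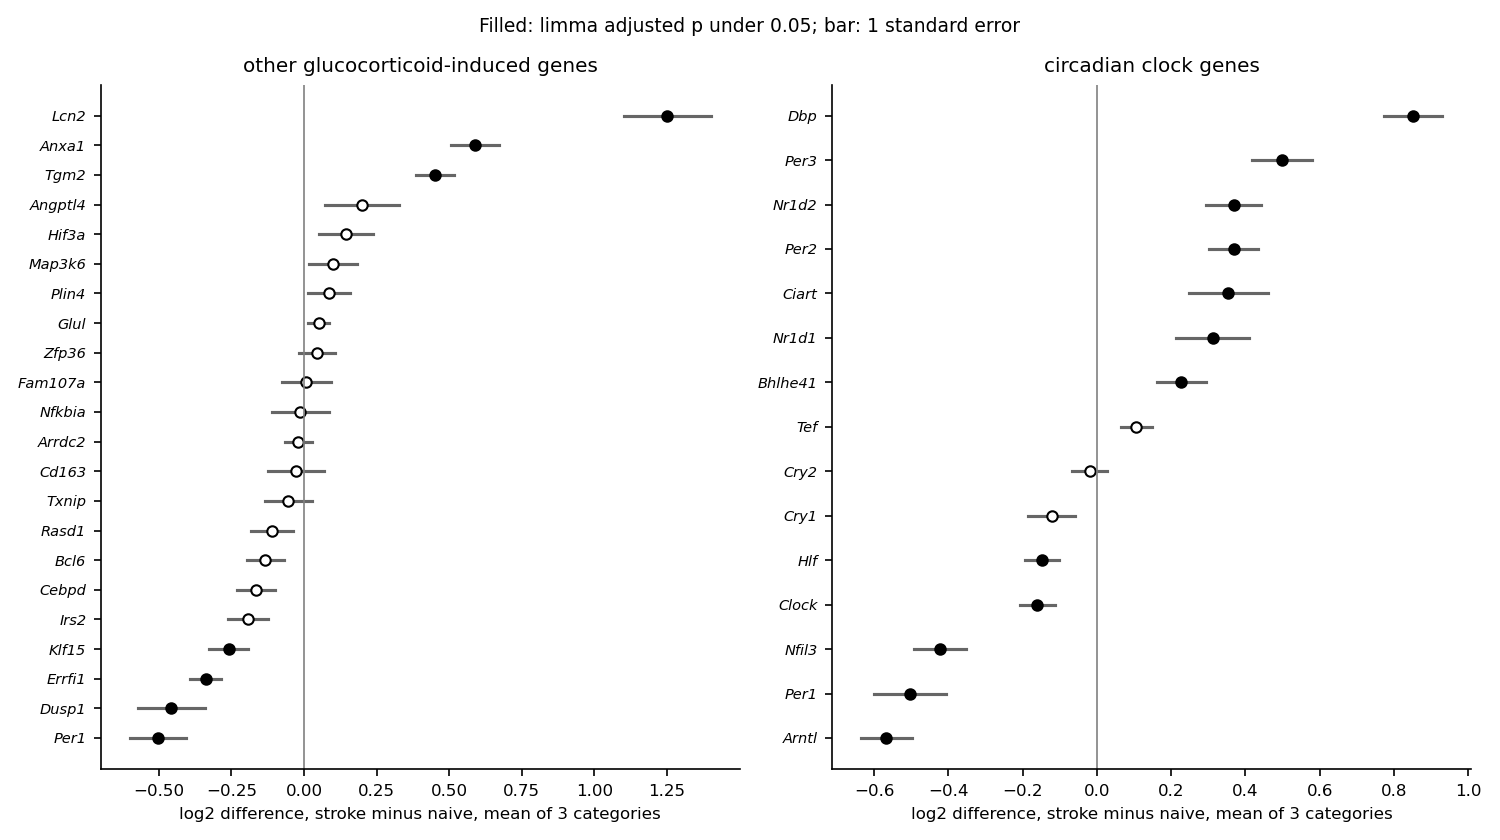
Log2 difference between stroke and naive dura averaged over the 3 categories (horizontal axis) for the measured genes of the other glucocorticoid-induced list (left) and of the circadian clock list (right), with bars of 1 standard error. Filled points passed limma's test at an adjusted p under 0.05: 7 of 22 on the left and 12 of 15 on the right.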

How the data were processed

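The deposited table holds log2 summary values per probe set from Affymetrix gene arrays hybridised with biotin-labelled cDNA, 1 mouse per array. The submitters' processing notes name RMA, affy and R 3.0.0 for these log2 values without saying what each did, so the background correction and normalization steps of the authors are not given in the sources used here. RMA-type values compress differences of dim probe sets. No scan date or batch is given, and batch effects were not tested. In all there are 34760 probe sets. Those assigned to a single gene symbol, 21640 for 19937 genes, were tested. Left out were 1321 with more than 1 symbol and 11799 that the probe annotation used here does not list.

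All 18 arrays were fitted with 1 mean per group in limma 3.58.1 (R 4.3.3), with moderated variances (12 residual and 3.41 prior degrees of freedom), 13 comparisons and Benjamini-Hochberg adjustment over all tested probe sets within each. The threshold was an adjusted p of 0.05. The fit was checked on simulated data with known changes. Each of the 10 genes has 1 such probe set. The rule for genes with more, the highest mean, was not needed.

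The 10 genes, the other gene lists and the marker lists were chosen with earlier results of these data known. Named from each pathway list were up to 4 genes with the smallest p in the comparison averaged over categories, and Per1, Dusp1 and Klf15 complete a count and were named after their values were seen. For each of the 10 genes, 3 others with the highest correlation were named. A list's score is the mean z score of its measured genes on an array. Promoter windows came from a RefSeq table of GRCm38.p6, matched by symbol, and were searched on both strands. No sequence is shown for Nr3c1 and Zbtb16. Python 3.11.15 was used for the remaining steps, with pandas 2.3.3, numpy 2.4.6 and matplotlib 3.10.9.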

Additional observations from a re-analysis of the deposited data

How the results depend on the processing

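Each of the 13 counts was recomputed under leaving out each of the 18 arrays, leaving out dim probe sets, array weights, the replicate block, testing all probe sets, fitting only the compared groups, a trended and robust variance, a second quantile normalization, covariates for choroid plexus and neuron scores, a minimum change of 1.5-fold and, chosen after seeing the data, leaving out the 5 arrays lowest in Ttr, which leaves 1 naive deficient array that is assumed to vary like the rest. Taking the mean of a gene's probe sets gave no other value, since each gene has 1. The 2 calls for stroke in wild type became 1 with the replicate block, array weights or all probe sets and 0 with only the compared groups, the covariates, without the 5 arrays or with the minimum change. The 0 in engrafted became 1 with the trended variance or array weights (Klf9 lower). The 4 on average became 2 with the covariates and 0 without the 5 arrays or with the minimum change. The 2 for stroke deficient against wild type became 1 with the trended variance, only the compared groups, all probe sets or the minimum change and 0 with the covariates or without the 5 arrays. Without single arrays these counts ranged from 0 to 2 in wild type, from 3 to 5 on average and from 0 to 3 for stroke deficient against wild type, and the other 10 stayed at 0. Over all tested probe sets same-numbered arrays deviated together at -0.61 to 0.60, so the numbers were not taken to pair the mice. That range does not settle the matter for single genes. In Fkbp5 and Zbtb16 array 3 lay above its group's mean in every group, by 0.12 to 0.60 and by 0.02 to 0.84. It did so in no other gene of the set. The share of all tested probe sets with this pattern was not computed. Fkbp5 and Zbtb16 correlated at 0.81 over deviations, so they are not 2 independent cases. With the replicate block the wild-type Tsc22d3 call was lost (limma adjusted p = 0.0566). The second normalization moved the median of all tested probe sets by at most 0.04 (log2). In every case the cause was not tested. Differences (log2) that were not called changed sign as follows. A second quantile normalization gave Klf9 -0.0143 and Pdk4 0.00477 for stroke in wild type, Mt1 -0.011 for stroke in engrafted, Tsc22d3 0.00441 and Nr3c1 0.0159 for naive engrafted against wild type, Klf9 0.0242 for stroke deficient against wild type, Tsc22d3 0.00375 for stroke engrafted against wild type and Tsc22d3 -0.000662 for the engrafted minus wild-type response. Array weights gave Pdk4 -0.24 for stroke in deficient, Mt1 -0.0203 for stroke in engrafted, Zbtb16 0.0708 and Mt1 -0.00616 for stroke on average, Tsc22d3 -0.00651 for naive deficient against wild type, Sgk1 0.0744 for naive engrafted against deficient, Pdk4 0.00399 for stroke engrafted against deficient, Pdk4 -0.18 for the deficient minus wild-type response and Ddit4 -0.0367 and Mt2 0.12 for the engrafted minus deficient response. The covariates gave Zbtb16 0.0505 and Pdk4 0.33 for stroke in wild type, Pdk4 -0.064 for stroke in deficient, Zbtb16 0.15 for stroke on average, Pdk4 0.17 for naive deficient against wild type, Nr3c1 0.000239 for stroke engrafted against deficient, Pdk4 -0.40 for the deficient minus wild-type response, Ddit4 0.068 for the engrafted minus wild-type response and Sgk1 0.0519 for the engrafted minus deficient response. Leaving out the 5 arrays lowest in Ttr gave Sgk1 0.0967, Ddit4 0.0386, Pdk4 0.19 and Mt1 -0.0114 for stroke in wild type, Pdk4 -0.10 for stroke in deficient, Mt1 -0.0756 for stroke in engrafted, Zbtb16 0.00808 for stroke on average, Fkbp5 -0.18, Tsc22d3 -0.0244 and Pdk4 0.31 for naive deficient against wild type, Pdk4 -0.11 for naive engrafted against deficient, Mt1 0.0046 for naive engrafted against wild type, Pdk4 0.0188 for stroke deficient against wild type, Ddit4 0.0107, Mt1 -0.0283 and Nr3c1 0.000369 for stroke engrafted against deficient and Pdk4 -0.29 for the deficient minus wild-type response. Single arrays left out gave Sgk1 -0.27 to 0.0967, Zbtb16 -0.50 to 0.23, Klf9 -0.0393 to 0.0412, Ddit4 -0.11 to 0.0386, Pdk4 -0.28 to 0.19 and Mt1 -0.0114 to 0.18 for stroke in wild type, Pdk4 -0.31 to 0.36 for stroke in deficient, Ddit4 -0.19 to 0.0616, Mt1 -0.0756 to 0.0491 and Nr3c1 -0.0305 to 0.0451 for stroke in engrafted, Zbtb16 -0.12 to 0.12 for stroke on average. In category comparisons they gave Tsc22d3 -0.0389 to 0.19 and Pdk4 -0.38 to 0.0507 for naive deficient against wild type, Tsc22d3 -0.24 to 0.00881, Sgk1 -0.17 to 0.0589 and Pdk4 -0.0651 to 0.39 for naive engrafted against deficient, Tsc22d3 -0.17 to 0.0878, Pdk4 -0.22 to 0.21, Mt1 -0.12 to 0.0046 and Nr3c1 -0.0639 to 0.0118 for naive engrafted against wild type, Klf9 -0.0734 to 0.0194 and Pdk4 -0.43 to 0.23 for stroke deficient against wild type, Fkbp5 -0.16 to 0.0352, Ddit4 -0.13 to 0.11, Mt1 -0.0283 to 0.0446 and Nr3c1 -0.0232 to 0.000369 for stroke engrafted against deficient. For the other comparisons they gave Tsc22d3 -0.0954 to 0.0587 for stroke engrafted against wild type, Fkbp5 -0.24 to 0.21, Sgk1 -0.21 to 0.15 and Pdk4 -0.28 to 0.38 for the deficient minus wild-type response, Tsc22d3 -0.12 to 0.14, Sgk1 -0.24 to 0.13, Zbtb16 -0.70 to 0.0313, Ddit4 -0.15 to 0.11 and Mt1 -0.18 to 0.0144 for the engrafted minus wild-type response, Sgk1 -0.16 to 0.0708, Ddit4 -0.00869 to 0.25 and Mt2 -0.092 to 0.0614 for the engrafted minus deficient response.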

Other observations

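The mouse with the highest Fkbp5 level of its group was also highest in Klf9 in 5 of 6 groups and in Tsc22d3, Ddit4 and Pdk4 in 4 each. Of the 19936 other genes, 0.798% matched in 5 or more groups and 6.46% in 4 or more, with a mean of 1.87 groups. Zbtb16 and Mt1 matched in 3 groups, as 26.5% of all did in 3 or more, Mt2 and Sgk1 in 2 and Nr3c1 in 1. The mouse highest in Fkbp5 was number 3 in every group except naive engrafted, where it was number 1. Over the 18 arrays the level of Ddit4 correlated at -0.76 with the mean z score of 7 adipocyte markers and that of Zbtb16 at 0.68. Over deviations from group means these values were -0.53 and 0.34, and without the 2 farthest arrays -0.19 and 0.46. These are descriptions of 18 arrays that share their normalization, with no test. Of the 7 adipocyte markers, 0 were higher and 1 lower after stroke on average. Among them Lep lay above the lower quartile on only 4 arrays and Adipoq on 10.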
